A study of Homo sapiens with 9 samples.

Results

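Solute carriers (SLC genes) expressed in SW1353 cells were described across 9 libraries. Members were the genes whose symbol has the form of a numbered SLC or SLCO family gene and whose value reached 1 in at least 3 of the 9 libraries. Of 346 such symbols among the 19389 genes of the table, 181 passed and 165 did not, and 24 of those 165 were at 0 in every library. From the 181, 10 genes were left out by name: SLC2A1, SLC2A3, SLC16A1, SLC16A3, SLC7A11, SLC7A5, SLC3A2, SLC39A8, SLC39A14 and SLC30A1. This left 171 members, chosen by symbol and by each gene's own expression level. No difference between groups was used, but a gene that is high in 1 group only could enter through that group. The third-highest value of the members nearest the threshold was 1.03 for SLC45A4, 1.07 for SLC17A7 and 1.19 for SLC6A12. Just outside it were SLC25A18 at 0.989, SLC5A4 at 0.865 and SLC16A12 at 0.814.

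The libraries are mRNA libraries of SW1353, a human chondrosarcoma line, in 3 groups of 3. In the first group PBSL, made from Protaetia brevitarsis seulensis beetle larvae, was given for 2 h and was followed by 20 h with 20 ng/mL of the inflammatory cytokine interleukin-1β (IL-1β). The second group received the same IL-1β without PBSL, and the third was untreated. No group with PBSL alone was analysed here, and the labels do not say which PBSL concentration the sequenced cells received. They also do not say whether the libraries of a group came from separate cultures, so p-values measure only the spread between these libraries, which may be technical.

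Solute carriers are membrane proteins that move small molecules such as amino acids, sugars, nucleosides, ions, metals and vitamins across the plasma membrane and the membranes of organelles. They work by facilitated diffusion or by coupling the movement of a substrate to that of another solute, and many move more than 1 kind of substrate. The SLC25 family sits mostly in the inner mitochondrial membrane, and the SLCO family carries large organic anions. In chondrocytes, solute carriers supply glucose, sulfate, phosphate and ascorbate for matrix production.

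Values are the authors' normalized expression levels. How they were scaled is not given in the sources used here. Among genes whose smallest value above 0 was under 0.1, the median of that value was 0.014 for the 809 with the longest transcripts and 0.05 for the 810 with the shortest, and levels are set side by side between genes on the assumption that they are scaled for length and sequencing depth. They are not read counts, so the number of reads behind a value is unknown. They summed to between 523758 and 553196 per library. Each change below is a log2 fold change fitted with limma on log2(value + 1), with 9 libraries in 1 model, which understates the change of genes with low values. Called genes had an adjusted p (Benjamini-Hochberg, over the 11924 genes tested) below 0.05. As a check of the labels, all 5 IL-1β response genes looked at were called higher in both exposed groups against untreated. Among them, CXCL8, a neutrophil-attracting chemokine, averaged 1083 ± 22.7 in PBSL + IL-1β libraries, 1021 ± 25.3 in IL-1β libraries and 2.30 ± 0.403 in untreated libraries (SD, n = 3 each). Of 4 mesenchymal markers, VIM lay between 2997 and 3403 in the 9 libraries. Under IL-1β against untreated, FN1 (log2 fold change 0.81, adjusted p = 5.25e-07) and COL1A1 (0.37, 0.0157) were higher, and COL1A2 (-0.13, 0.382) was not called. With PBSL against IL-1β, COL1A1 (log2 fold change -0.73, adjusted p = 0.00291), COL1A2 (-0.79, 0.00264) and FN1 (-0.52, 0.00127) were lower. The cartilage collagen COL2A1 reached at most 0.027, so this defining chondrocyte product was all but absent, while the chondrocyte regulator SOX9 lay between 8.003 and 12.8. Under IL-1β against untreated, SOX9 was lower (log2 fold change -0.41, adjusted p = 0.00114) and the chondrocyte marker ACAN was higher (0.69, 0.000348). ACAN was low throughout, between 0.454 and 2.149 in the 9 libraries, with means of 1.42 in IL-1β and 0.501 in untreated libraries. Of 4 leukocyte markers, 0 had a mean of at least 1 over the 9 libraries (PTPRC reached at most 0.393, and CD3E 1.325), and the same held for 0 of 3 endothelial markers (PECAM1 reached at most 0.062). Of 3 epithelial markers, EPCAM reached at most 0.489 and CDH1 0.341, while the keratin gene KRT8 averaged 15.02 in PBSL + IL-1β libraries, 18.03 in IL-1β libraries and 39.5 in untreated libraries. KRT8 was lower in IL-1β than in untreated libraries (log2 fold change -1.09, adjusted p = 1.32e-06) and in PBSL + IL-1β than in IL-1β libraries (log2 fold change -0.26, adjusted p = 0.0476). The summed level of the 3 epithelial markers ran from 13.8 to 17.7 in PBSL + IL-1β libraries, 17.7 to 18.6 in IL-1β libraries and 38.1 to 42.4 in untreated libraries, and that of the 4 leukocyte markers from 0.679 to 0.715, 0.724 to 0.925 and 1.33 to 1.81 in the same order of groups. The part of these markers in the results below was not tested. In bulk RNA, fewer cells of a kind and less RNA per cell cannot be told apart.

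The 171 members held between 0.741% and 0.758% of the summed values of a library. Their levels covered a wide range: the mean over the 9 libraries was at least 100 for 6 members, at least 10 for 85 and under 2 for 16, with a median of 9.72. By textbook substrate or by family, 38 members were mitochondrial carriers, 28 carried amino acids or peptides, 27 ions or protons, 20 trace metals or heme, 14 carboxylates, lipids or choline, 14 organic ions or vesicular cargo, 13 sugars or polyols, 11 vitamins or nucleosides, and 6 nucleotide sugars or other cargo of the Golgi apparatus. The member with the highest mean over the 9 libraries was SLC25A3, the mitochondrial phosphate carrier, at 395, 419 and 408 in PBSL + IL-1β libraries, 385, 384 and 389 in IL-1β libraries and 450.0, 435 and 437 in untreated libraries. The plasma membrane amino acid carrier with the highest mean over the 9 libraries was SLC38A2, a sodium-coupled carrier of small neutral amino acids, with means of 191 ± 20.4 in PBSL + IL-1β libraries, 220.4 ± 2.23 in IL-1β libraries and 206 ± 3.28 in untreated libraries. In 163 members the value was at least 1 in every library. The other 8 crossed 1 within the study, among them SLC17A7, a vesicular glutamate carrier, which reached 1 in the 3 untreated libraries and in no other.

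Summed over all members, the level was 4107 ± 81.5 in PBSL + IL-1β libraries, 4116 ± 36.5 in IL-1β libraries and 4014 ± 61.8 in untreated libraries. The summed level of the amino acid and peptide carriers was 778, 717 and 728 in PBSL + IL-1β libraries, 817, 835 and 824 in IL-1β libraries and 742, 724 and 753 in untreated libraries. The IL-1β libraries lay above all the others in this class. They also did so, more narrowly, for trace metals and heme, at 565, 575 and 566, while the highest other library was at 562. For the mitochondrial carriers the sums were 1549, 1595 and 1501 in PBSL + IL-1β libraries, 1443, 1457 and 1439 in IL-1β libraries and 1564, 1529 and 1564 in untreated libraries. Here the IL-1β libraries lay below all the others. With 3 libraries a group, an exact permutation test of a single sum cannot go below p = 0.1, so these sums are given without a test. Such sums give most weight to the members with the highest values. Among them are SLC38A2 and SLC1A5 in the amino acid class and SLC25A3 in the mitochondrial class.

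**Figure D1:**
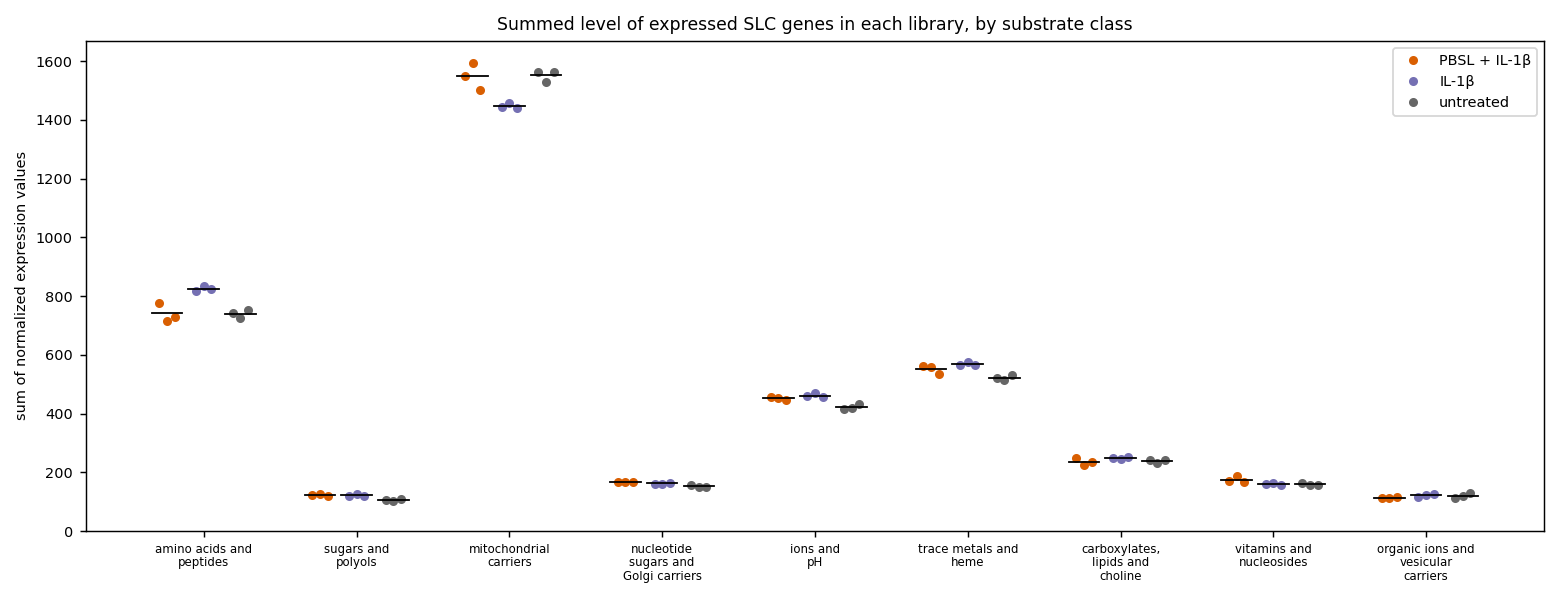
Sum of the normalized expression values of the members of each substrate class in each of the 9 libraries, with a bar at the group mean. In IL-1β libraries the amino acid and peptide class sums to 817 to 835, above the other 6 libraries, and the mitochondrial class to 1439 to 1457, below the other 6. The trace metal and heme class sums to 565 to 575 there, narrowly above the other 6.

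The first comparison set cells with IL-1β alone beside untreated cells. The largest increases under IL-1β were in an organic anion carrier (SLCO2B1), a lysosomal peptide carrier (SLC15A3), a glucose transporter family member (SLC2A6), an organic cation carrier (SLC22A4) and the iron carriers SLC25A37 and SLC11A2. The urea transporter SLC14A1 and the amino acid exchanger SLC7A8 had the largest decreases. Of the 171 members, 42 rose and 33 fell, or 43.9%, beside 32.1% of all genes tested. By direction, 16.2% of all genes tested rose and 16.0% fell. The median log2 fold change was 0.03 over the members and -0.0049 over all genes tested. The groups did not overlap for 115 members, 67.3%, beside 52.8% of all genes tested. By direction, 59 members were apart and higher, beside 25.7% of all genes tested, and 56 apart and lower, beside 27.1%. A fitted change of at least 2-fold on the log2(value + 1) scale was seen in 6 of the called increases and 2 of the called decreases, beside 2.78% of all genes tested in either direction.

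Promoter sequences are shown for 4 members described below as higher under IL-1β, as the context in which a searched motif lies. Windows of 300 bases, from 250 before to 50 after 1 annotated gene start, were taken from RefSeq (GRCh38.p14), where 140 of the 171 members had a match. Both strands were searched for the NF-κB consensus (κB), for the AP-1 motif TGANTCA, for the amino acid response element core TGATGNAA and for the core of the interferon-stimulated response element. These were found in 11.3%, 7.71%, 3.62% and 3.57% of 35116 promoters and in 20, 8, 8 and 1 of the 140 member promoters. Of the 8 members with the largest IL-1β increases among those whose groups did not overlap and whose higher mean was 3 or more, 5 were searched here. Capitals mark the match: a κB match in SLC22A4 (chr5:132294144-132294443, plus strand), 132 bases before the start, and in SLC11A2 (chr12:51026335-51026634, minus strand), 249 bases before it. They mark the AP-1 motif in SLC43A2 (chr17:1604985-1605284, minus strand), 34 bases before the start, and in SLC7A7 (chr14:22819742-22820041, minus strand) the interferon element on the opposite strand, 10 bases before it. A match is a description of letters and not a shown binding site.
SLC22A4: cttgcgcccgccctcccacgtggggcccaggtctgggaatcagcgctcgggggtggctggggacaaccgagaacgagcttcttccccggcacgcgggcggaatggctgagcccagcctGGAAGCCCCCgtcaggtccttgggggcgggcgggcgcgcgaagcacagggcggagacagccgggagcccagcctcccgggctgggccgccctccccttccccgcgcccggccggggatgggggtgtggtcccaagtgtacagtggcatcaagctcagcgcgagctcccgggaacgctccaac
SLC11A2: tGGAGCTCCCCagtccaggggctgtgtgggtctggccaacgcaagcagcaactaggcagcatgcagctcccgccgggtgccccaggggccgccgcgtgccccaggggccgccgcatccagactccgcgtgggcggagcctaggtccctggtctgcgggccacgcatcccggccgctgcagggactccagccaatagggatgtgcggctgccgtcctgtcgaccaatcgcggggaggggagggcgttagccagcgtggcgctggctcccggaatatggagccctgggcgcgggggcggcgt
SLC43A2: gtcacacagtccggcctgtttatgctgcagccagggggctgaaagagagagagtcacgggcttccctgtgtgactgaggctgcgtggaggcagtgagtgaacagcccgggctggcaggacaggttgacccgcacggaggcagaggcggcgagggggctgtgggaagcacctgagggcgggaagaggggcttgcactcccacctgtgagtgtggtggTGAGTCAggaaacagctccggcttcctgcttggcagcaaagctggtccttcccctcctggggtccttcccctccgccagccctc
SLC7A7: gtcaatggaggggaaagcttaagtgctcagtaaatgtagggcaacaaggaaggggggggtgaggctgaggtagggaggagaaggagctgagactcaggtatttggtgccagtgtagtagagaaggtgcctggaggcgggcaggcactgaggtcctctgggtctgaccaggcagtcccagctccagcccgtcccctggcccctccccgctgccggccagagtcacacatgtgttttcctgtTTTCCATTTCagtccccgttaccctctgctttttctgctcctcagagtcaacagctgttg

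The windows of SLC2A6, SLCO2B1 and SLC14A1 held none of the 4 motifs, and that of SLC7A8 held an AP-1 match 134 bases before the start. Other members described below also held matches that are not printed. An AP-1 match lay 200 bases before the start in SLC50A1 and a κB match 13 bases before it in SLC20A1. The amino acid response element core was found 220 bases before the start in SLC1A3 and 195 before it in SLC27A5, and just after the start in SLC7A1. Other starts of these genes were not searched. The start searched can differ from the outer end of the gene position given below. The windows of SLCO2B1 (chr11:75150857-75151156) and SLC14A1 (chr18:45723931-45724230) lay inside those positions, as did those of SLC7A8, SLC7A7 and SLC11A2.

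Among the carriers of organic ions, 5 of 14 members rose under IL-1β and 4 fell, or 64.3%, beside 32.1% of all genes tested. Positions are those of GENCODE 29 on GRCh38. SLCO2B1 (chromosome 11, 75100563 to 75206549), which takes up organic anions such as steroid sulfates, was at 23.7, 28.3 and 28.4 in IL-1β libraries, against 5.25, 5.71 and 7.60 in untreated libraries. The groups did not overlap, and the lowest IL-1β value was well above the highest untreated one. SLCO2B1 had the largest increase of the members (log2 fold change 1.96, SE 0.146, adjusted p = 9.68e-07). SLC22A4 (chromosome 5, 132294443 to 132344206), which carries the antioxidant ergothioneine, was at 6.01, 6.33 and 6.34 in IL-1β libraries, against 1.83, 2.25 and 1.94 in untreated libraries, with tight groups and no overlap (log2 fold change 1.27, SE 0.0707, adjusted p = 8.53e-08). Its relative SLC22A5, the carnitine transporter, was at 3.29, 3.72 and 3.00 in IL-1β libraries, against 3.23, 3.57 and 2.81 in untreated libraries, and those values did not pass the test (log2 fold change 0.05, adjusted p = 0.742). SLC22A23 (log2 fold change 0.71, adjusted p = 5.11e-06) and SLC22A15 (log2 fold change 0.65, adjusted p = 6.35e-05), both of the organic ion carrier family, also rose. In the other direction, SLC14A1 (chromosome 18, 45687025 to 45752520), the urea transporter UT-B, was at 16.3, 17.2 and 19.8 in IL-1β libraries, against 43.7, 47.2 and 56.3 in untreated libraries. Every untreated library was above every IL-1β library, and SLC14A1 had the largest decrease of the members (log2 fold change -1.41, SE 0.121, adjusted p = 3.3e-06). SLC14A1 was counted in this class although urea is not an ion.

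Of 28 amino acid and peptide carriers, 12 rose under IL-1β and 5 fell, with a class median log2 fold change of 0.15. The share called was 60.7%, beside 32.1% of all genes tested. It does not count SLC7A5 (log2 fold change 0.73), SLC7A11 (0.38) and SLC3A2 (0.34), which were left out by name and were called higher. SLC15A3 (chromosome 11, 60937084 to 60952530), a lysosomal carrier of histidine and small peptides, was at 11.96, 10.98 and 14.8 in IL-1β libraries, against 2.01, 3.12 and 2.65 in untreated libraries. All 3 IL-1β values were higher than the untreated ones (log2 fold change 1.92, SE 0.152, adjusted p = 1.67e-06). Its relative SLC15A4 rose (log2 fold change 0.30, adjusted p = 0.00189). SLC43A2, which carries branched-chain amino acids and phenylalanine across the plasma membrane, was at 6.38, 6.08 and 6.55 in IL-1β libraries, against 2.83, 2.58 and 3.33 in untreated libraries (log2 fold change 0.91, SE 0.0871, adjusted p = 8.38e-06). SLC43A3, placed in this class by its family and known as a purine nucleobase carrier, was at 37.3, 42.2 and 35.9 in IL-1β libraries, against 22.4, 21.6 and 22.3 in untreated libraries. Neither of these genes had overlapping groups, and SLC43A3 rose (log2 fold change 0.77, SE 0.0971, adjusted p = 8.01e-05). Also higher were SLC7A7, the light chain of a cationic amino acid exchanger (log2 fold change 0.63, adjusted p = 6.54e-05), the glutamine carrier SLC38A1 (log2 fold change 0.53, adjusted p = 0.000123), the arginine and lysine carrier SLC7A1 (log2 fold change 0.29, adjusted p = 0.00503), and the glutamine carrier SLC1A5 (log2 fold change 0.27, adjusted p = 0.00927).

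SLC7A8 (chromosome 14, 23125295 to 23183674), which exchanges large neutral amino acids and thyroid hormones, moved the other way and was at 5.998, 6.12 and 6.19 in IL-1β libraries, against 15.3, 16.1 and 19.9 in untreated libraries. The IL-1β libraries were close to each other and far below the untreated ones (log2 fold change -1.34, SE 0.0965, adjusted p = 7.46e-07). The taurine carrier SLC6A6 fell by 0.35 on the log2 scale, with 36.3 ± 0.229 in IL-1β libraries and 46.5 ± 4.77 in untreated libraries. The glutamate carrier SLC1A3 was at 6.41, 6.11 and 6.57 in IL-1β libraries, against 5.86, 7.45 and 7.50 in untreated libraries, with overlapping groups and no call (log2 fold change -0.10, adjusted p = 0.408). SLC7A2, a cationic amino acid carrier that is induced by cytokines in other cell types, stayed low, with 1.35, 1.14 and 1.40 in IL-1β libraries, against 1.00, 0.840 and 0.711 in untreated libraries. It was called (log2 fold change 0.31, adjusted p = 0.0213), but not without untreated library 2 (adjusted p = 0.0507), untreated library 3 (0.0837), IL-1β library 1 (0.0723) or IL-1β library 3 (0.0852).

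Among 13 sugar and polyol carriers, 2 rose and 1 fell, or 23.1%, beside 32.1% of all genes tested. This share does not count SLC2A1 (log2 fold change 0.45, adjusted p = 0.0019) and SLC2A3 (0.32, 0.00257), which were left out by name and rose. SLC2A6 (chromosome 9, 133471095 to 133479137), the glucose transporter family member GLUT6 of lysosomal membranes, was at 22.3, 26.1 and 24.3 in IL-1β libraries, against 8.84, 7.65 and 8.71 in untreated libraries, with no overlap (log2 fold change 1.42, SE 0.0848, adjusted p = 1.45e-07). SLC5A3, the sodium-coupled carrier of the osmolyte myo-inositol, fell, with 4.30, 4.55 and 4.12 in IL-1β libraries, against 6.17, 7.001 and 6.76 in untreated libraries (log2 fold change -0.52, adjusted p = 0.00224). Its exons overlap those of MRPS6 on the same strand, so its values may hold reads of that gene. SLC50A1, which had the highest mean of this class over the 9 libraries, was at 23.4, 26.3 and 22.7 in IL-1β libraries, against 21.9, 20.6 and 20.9 in untreated libraries, a difference that was not called (log2 fold change 0.18, adjusted p = 0.0638). It was called when only the 2 groups were fitted (adjusted p = 0.034) and without PBSL + IL-1β library 1 (0.0499) or 3 (0.0408).

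Iron carriers were among the largest increases. SLC25A37, the mitochondrial iron importer mitoferrin-1, was at 26.4, 27.3 and 27.03 in IL-1β libraries, against 10.4, 12.3 and 10.5 in untreated libraries. SLC11A2 (chromosome 12, 50979401 to 51028566), which imports ferrous iron across the plasma membrane and out of endosomes, was at 27.8, 26.9 and 27.4 in IL-1β libraries, against 13.7, 14.4 and 13.6 in untreated libraries. In both genes the untreated libraries were all lower than any IL-1β library. SLC25A37 (log2 fold change 1.22, SE 0.0662, adjusted p = 7.19e-08) and SLC11A2 (log2 fold change 0.93, SE 0.0613, adjusted p = 3.37e-07) both rose, as did mitoferrin-2, SLC25A28 (log2 fold change 0.55, adjusted p = 7.15e-06). The iron exporter SLC40A1 (ferroportin) was at 1.32, 1.48 and 1.21 in IL-1β libraries, against 1.69, 2.00 and 2.29 in untreated libraries. It was lower (log2 fold change -0.36, adjusted p = 0.0109), but was not called without untreated library 3 (adjusted p of 0.05, rounded) or IL-1β library 3 (0.0516).

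The 20 members for trace metals and heme split evenly, with 6 higher and 6 lower, or 60%, beside 32.1% of all genes tested. This even split does not count 3 metal carriers left out by name, which were all called higher. Their log2 fold changes were 2.01 for SLC39A14, 1.07 for SLC30A1 and 0.85 for SLC39A8. The copper importer SLC31A1 rose (log2 fold change 0.33, adjusted p = 0.000612). SLC39A7, which releases zinc from the endoplasmic reticulum and Golgi apparatus and is the highest of this class, rose (log2 fold change 0.21, adjusted p = 0.00866), with 115 ± 0.803 in IL-1β libraries and 99.3 ± 1.98 in untreated libraries. SLC39A10, a zinc importer of the plasma membrane, was at 3.81, 3.32 and 3.73 in IL-1β libraries, against 6.06, 6.18 and 5.80 in untreated libraries. It did not overlap and fell (log2 fold change -0.60, SE 0.0787, adjusted p = 0.000106).

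Of the 38 mitochondrial carriers, 4 rose and 9 fell, with a class median of -0.07. The share called was 34.2%, near the 32.1% of all genes tested. SLC25A10, the dicarboxylate carrier, was at 22.8, 20.6 and 20.1 in IL-1β libraries, against 33.3, 28.9 and 29.8 in untreated libraries and fell (log2 fold change -0.51, adjusted p = 0.000155). SLC25A23, a calcium-regulated carrier of ATP-Mg and phosphate, was at 23.7, 23.9 and 23.9 in IL-1β libraries, against 30.99, 32.1 and 35.4 in untreated libraries and fell (log2 fold change -0.44, adjusted p = 0.000509). Neither gene overlapped between the groups. The carnitine and acylcarnitine carrier SLC25A20 (log2 fold change -0.42, adjusted p = 0.000449) and the abundant phosphate carrier SLC25A3 (log2 fold change -0.19, adjusted p = 0.00591) were also lower. Exons of SLC25A10 are shared on the same strand with the annotated gene AC139530.2.

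Among the 27 ion and proton carriers, 7 rose and 3 fell, or 37%, beside 32.1% of all genes tested. SLC26A6, an anion exchanger for chloride, bicarbonate, oxalate and sulfate, averaged 20.8 ± 0.942 in IL-1β libraries and 12.4 ± 0.821 in untreated libraries (log2 fold change 0.70, adjusted p = 6.93e-06). SLC41A2, a magnesium carrier, rose (log2 fold change 0.65, adjusted p = 9.06e-06). SLC4A2, a chloride-bicarbonate exchanger with the highest mean of the class over the 9 libraries, rose (log2 fold change 0.25, adjusted p = 0.00455). SLC26A2, the sulfate carrier mutated in diastrophic dysplasia, which supplies sulfate for cartilage proteoglycans, was at 10.99, 11.4 and 11.3 in IL-1β libraries, against 14.8, 13.7 and 13.96 in untreated libraries. The IL-1β libraries were all lower (log2 fold change -0.31, adjusted p = 0.00831). The cotransporter SLC12A2 (log2 fold change -0.01, adjusted p = 0.91) and the phosphate carrier SLC20A1 (log2 fold change 0.13, adjusted p = 0.193) were not called. SLC20A1 was called when only the 2 groups were fitted (adjusted p = 0.0243) and without PBSL + IL-1β library 1 (0.0478).

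In the remaining classes, all 3 called members of the 6 nucleotide sugar and Golgi carriers rose, among them SLC33A1, which brings acetyl-CoA into the endoplasmic reticulum (log2 fold change 0.39, adjusted p = 0.000233). The share of this class called was 50%, beside 32.1% of all genes tested. SLC33A1 shares exons on the same strand with the annotated gene AC104472.3. Of 14 carriers of carboxylates, lipids and choline, 1 rose and 2 fell, or 21.4%, beside the same 32.1%. This share does not count SLC16A1 (log2 fold change 0.67, adjusted p = 7.81e-07) and SLC16A3 (0.58, 1.73e-05), which were left out by name and rose. SLC27A5, a bile acid and fatty acid acyl-CoA ligase, was lower (log2 fold change -0.46, adjusted p = 0.0062). Of 11 vitamin and nucleoside carriers, 2 rose and 3 fell, or 45.5%, beside 32.1% of all genes tested. SLC29A4, a plasma membrane monoamine carrier of the nucleoside transporter family, was at 2.79, 2.21 and 2.58 in IL-1β libraries, against 4.25, 3.85 and 4.17 in untreated libraries (log2 fold change -0.53, adjusted p = 0.00104). SLC23A2, a sodium-coupled vitamin C importer, was at 7.46, 6.93 and 7.25 in IL-1β libraries, against 9.26, 10.2 and 10.3 in untreated libraries, with no overlap (log2 fold change -0.41, adjusted p = 0.00137).

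**Figure D2:**
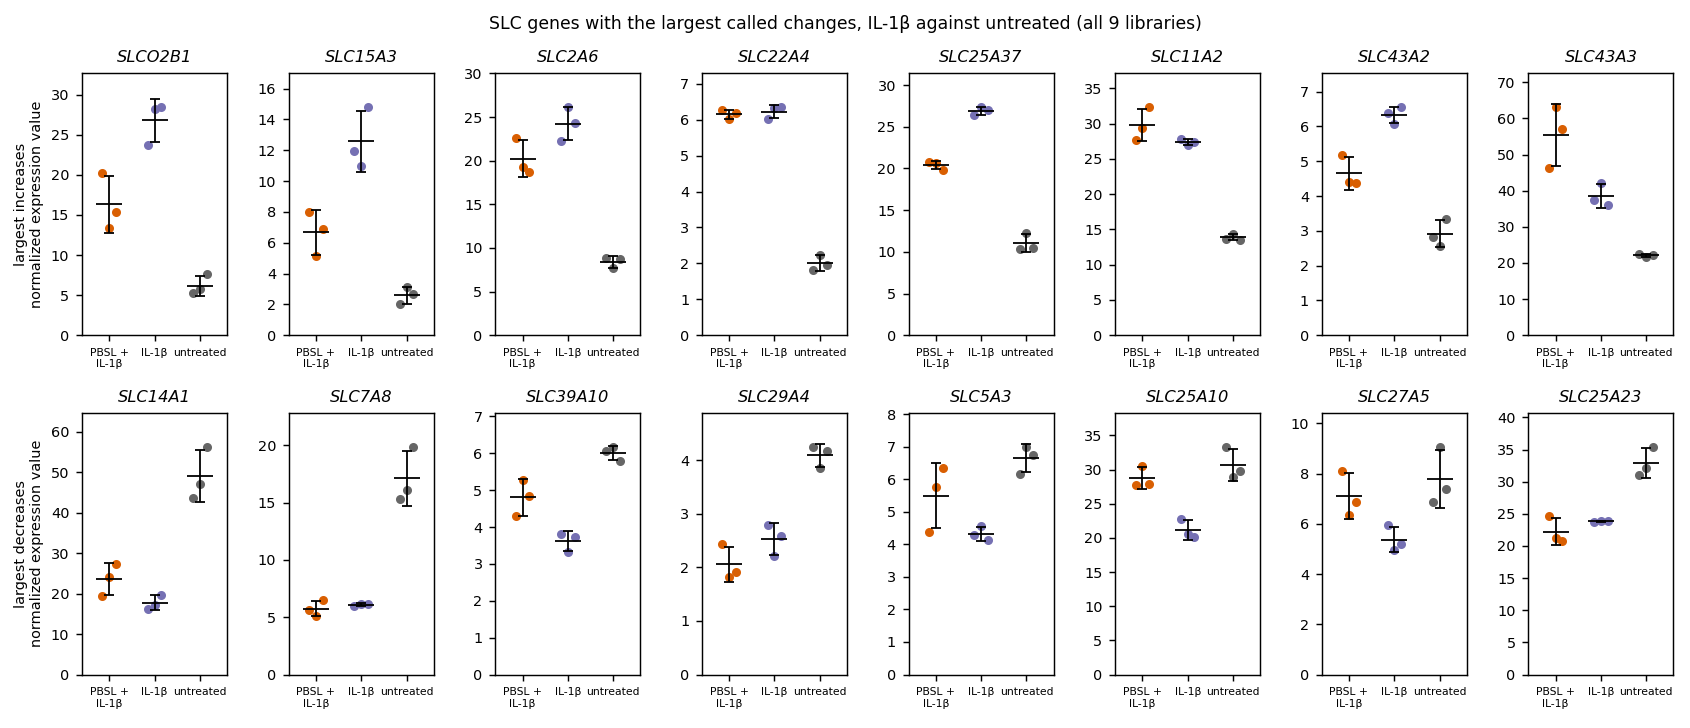
Normalized expression value of the 8 members with the largest called increases (upper row) and decreases (lower row) of IL-1β against untreated libraries, among members whose groups did not overlap and whose higher mean was 3 or more, 1 point per library, with the mean and SD of 3 libraries; every axis starts at 0. In the upper row no IL-1β value falls within the untreated values, as in SLC22A4 (6.01, 6.33 and 6.34 against 1.83, 2.25 and 1.94), and in the lower row SLC14A1 and SLC7A8 have the largest gaps.

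Of the 75 called members, 48 kept their call in each of the 17 other settings of the test in which they were tested, counting 28 of the 42 that rose and 20 of the 33 that fell. All members named as higher or lower in this comparison belong to them except SLC7A2 and SLC40A1, whose values without single libraries are given above. Reads of the opposite strand cannot be told apart for members with antisense partners, such as SLC15A3 (TMEM132A), SLC22A4 (MIR3936HG), SLC26A2 (TIGD6) and SLC29A4 (TNRC18), because the strand setting of the counting is not given in the sources used here.

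The second comparison set PBSL + IL-1β beside IL-1β alone. With PBSL, the monocarboxylate transporter family member SLC16A4, the peptide carrier SLC15A3, the organic anion carrier SLCO2B1 and the amino acid exchanger light chain SLC7A7 were lower. The organic anion carrier SLCO4A1, the nucleobase carrier SLC43A3, the dicarboxylate carrier SLC25A10 and the nucleoside carrier SLC29A1 were higher. Of the 171 members, 16 rose and 22 fell, or 22.2%, beside 22.5% of all genes tested, so the share of members called was near that of all genes. By direction, 11.5% of all genes tested rose and 11.0% fell. The median log2 fold change was -0.0052 over the members and 0.0079 over all genes tested. The groups did not overlap for 69 members, 40.4%, beside 41.8% of all genes tested, with 33 apart and higher (21.7% of all genes tested) and 36 apart and lower (20.1%). No called member reached a 2-fold change on the log2(value + 1) scale, beside 0.151% of all genes tested.

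The counts of this comparison depended on single libraries. Without PBSL + IL-1β library 1, 27 members rose and 33 fell. Without IL-1β library 1 the counts were 8 higher and 12 lower, as they were without IL-1β library 2. Without IL-1β library 3 or PBSL + IL-1β library 2 they were 9 and 13, and without PBSL + IL-1β library 3 they were 12 and 14. Across the 17 other settings of the test, 5 of the 16 increases (SLCO4A1, SLC43A3, SLC25A10, SLC29A1 and SLC25A13) and 10 of the 22 decreases (SLC16A4, SLC15A3, SLCO2B1, SLC38A3, SLC7A7, SLC22A15, SLC1A3, SLC43A2, SLC25A37 and SLC1A5) kept their call wherever they were tested. IL-1β libraries enter both this comparison and the one with untreated cells, so changes in opposite directions in the 2 comparisons are given below as values and not as an independent pattern.

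Amino acid and peptide carriers gave 8 of the 22 decreases and 1 increase among 28 members, with a class median of -0.08. The share called was 32.1% of the class, beside 22.5% of all genes tested. Class counts of this comparison also do not count the 10 genes left out by name, of which 4 fell. SLC15A3 was at 7.999, 5.15 and 6.87 in PBSL + IL-1β libraries, against 11.96, 10.98 and 14.8 in IL-1β libraries. No PBSL + IL-1β value reached the lowest IL-1β one (log2 fold change -0.83, SE 0.152, adjusted p = 0.00475). SLC7A7 (chromosome 14, 22773222 to 22829820) was at 2.19, 2.23 and 2.42 in PBSL + IL-1β libraries, against 4.40, 3.68 and 4.22 in IL-1β libraries, and at 2.20, 2.31 and 2.36 in untreated libraries. Its PBSL + IL-1β and untreated values lay in the same range, both below every IL-1β value. SLC7A7 fell against IL-1β (log2 fold change -0.63, SE 0.0772, adjusted p = 0.00261), and its difference from untreated was not called (log2 fold change 0.00, adjusted p = 0.972). SLC43A2 was at 5.19, 4.41 and 4.36 in PBSL + IL-1β libraries, against 6.38, 6.08 and 6.55 in IL-1β libraries (log2 fold change -0.38, SE 0.0871, adjusted p = 0.0116). The glutamate carrier SLC1A3 was at 4.24, 4.76 and 4.73 in PBSL + IL-1β libraries, against 6.41, 6.11 and 6.57 in IL-1β libraries, with no overlap (log2 fold change -0.40, SE 0.0878, adjusted p = 0.00951). SLC1A5, which imports glutamine and other neutral amino acids and is among the highest members, was at 209.5, 185 and 172 in PBSL + IL-1β libraries, against 228, 236 and 232 in IL-1β libraries. All 3 PBSL + IL-1β values were lower (log2 fold change -0.30, SE 0.0673, adjusted p = 0.0105). SLC38A3, a glutamine carrier near the threshold, was at 0.584, 0.603 and 0.326 in PBSL + IL-1β libraries, against 1.58, 1.52 and 1.19 in IL-1β libraries (log2 fold change -0.69, adjusted p = 0.00367).

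SLC43A3 was the class's increase. It was at 46.2, 63.05 and 57.02 in PBSL + IL-1β libraries, against 37.3, 42.2 and 35.9 in IL-1β libraries, and at 22.4, 21.6 and 22.3 in untreated libraries. The 3 groups did not overlap with each other and were ordered with untreated lowest and PBSL + IL-1β highest. SLC43A3 rose against IL-1β (log2 fold change 0.51, SE 0.0971, adjusted p = 0.00548) and against untreated (log2 fold change 1.28, adjusted p = 1.2e-06). Exons of SLC43A3 are shared on the same strand with the annotated gene AP000781.2. SLC38A2, which had the highest mean of the class over the 9 libraries but lay below SLC1A5 in each IL-1β library, was at 209, 169 and 195 in PBSL + IL-1β libraries, against 219, 223 and 219 in IL-1β libraries. It was called (log2 fold change -0.21, adjusted p = 0.042), a call that was lost when any library other than PBSL + IL-1β library 1 was left out, with adjusted p up to 0.122.

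Organic ion carriers moved both ways, with 2 of 14 higher and 4 lower, or 42.9%, beside 22.5% of all genes tested. SLCO4A1 (chromosome 20, 62642445 to 62685785), which takes up thyroid hormones and other organic anions, was at 5.45, 9.97 and 7.21 in PBSL + IL-1β libraries, against 3.20, 3.91 and 3.64 in IL-1β libraries, and at 3.71, 3.28 and 3.49 in untreated libraries. Only the PBSL + IL-1β libraries stood apart in this gene, with a spread wider than in the other groups. SLCO4A1 had the largest increase of the members with PBSL (log2 fold change 0.87, SE 0.150, adjusted p = 0.00413), and was not called between IL-1β and untreated (log2 fold change 0.03, adjusted p = 0.914). SLCO2B1 was at 20.3, 13.3 and 15.3 in PBSL + IL-1β libraries, against 23.7, 28.3 and 28.4 in IL-1β libraries. It was lower in each PBSL + IL-1β library (log2 fold change -0.70, SE 0.146, adjusted p = 0.00775), and still above every untreated value. SLC22A15, a relative of the carnitine and ergothioneine carriers, was at 2.34, 2.00 and 2.25 in PBSL + IL-1β libraries, against 3.35, 3.87 and 3.67 in IL-1β libraries (log2 fold change -0.53, SE 0.0798, adjusted p = 0.00312). SLC22A4 was at 6.26, 6.01 and 6.17 in PBSL + IL-1β libraries, against 6.01, 6.33 and 6.34 in IL-1β libraries, overlapping and not called (log2 fold change -0.02, adjusted p = 0.899). SLC14A1 was at 19.5, 24.1 and 27.3 in PBSL + IL-1β libraries, against 16.3, 17.2 and 19.8 in IL-1β libraries, with overlapping groups. It was called (log2 fold change 0.39, adjusted p = 0.0402), but not without untreated library 2 (adjusted p = 0.0575), IL-1β library 1 (0.134), IL-1β library 2 (0.112), PBSL + IL-1β library 2 (0.113) or PBSL + IL-1β library 3 (0.135).

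SLC22A18, an imprinted carrier of organic cations, averaged 10.3 ± 1.86 in PBSL + IL-1β libraries and 14.3 ± 1.25 in IL-1β libraries and was lower (log2 fold change -0.45, adjusted p = 0.0124), a call lost without IL-1β library 1 (adjusted p = 0.0538). Its antisense neighbour SLC22A18AS overlaps it, and SLCO4A1 overlaps SLCO4A1-AS1 in the same way.

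Of the 38 mitochondrial carriers, 6 rose and 2 fell with PBSL, with a class median of 0.09. The share called was 21.1%, near the 22.5% of all genes tested. SLC25A10 was at 27.7, 30.5 and 27.9 in PBSL + IL-1β libraries, against 22.8, 20.6 and 20.1 in IL-1β libraries, and at 33.3, 28.9 and 29.8 in untreated libraries. The PBSL + IL-1β values lay within or just below the untreated range, all above the IL-1β ones. SLC25A10 rose against IL-1β (log2 fold change 0.42, SE 0.0706, adjusted p = 0.00399), and its difference from untreated was not called (log2 fold change -0.09, adjusted p = 0.321). SLC25A13, an aspartate and glutamate exchanger of the malate-aspartate shuttle, averaged 24.97 ± 1.51 in PBSL + IL-1β libraries and 20.7 ± 0.0442 in IL-1β libraries (log2 fold change 0.26, adjusted p = 0.00955). SLC25A37 was at 20.7, 20.7 and 19.8 in PBSL + IL-1β libraries, against 26.4, 27.3 and 27.03 in IL-1β libraries. This mitoferrin was lower in each PBSL + IL-1β library (log2 fold change -0.38, SE 0.0662, adjusted p = 0.00413), and remained above every untreated value. SLC25A17, a peroxisomal cofactor carrier, rose (log2 fold change 0.30, adjusted p = 0.0109), though not without IL-1β library 3 (adjusted p = 0.0531). SLC25A40, a carrier linked to mitochondrial glutathione import, rose (log2 fold change 0.33, adjusted p = 0.0203), but not without IL-1β library 1 (adjusted p = 0.0791), IL-1β library 2 (0.0728), PBSL + IL-1β library 2 (0.0535) or PBSL + IL-1β library 3 (0.0654). SLC25A40 overlaps DBF4 on the opposite strand.

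SLC25A38, a mitochondrial glycine carrier, was called (log2 fold change 0.22, adjusted p = 0.0246), and not without IL-1β library 1 (adjusted p = 0.0893), 2 (0.075) or 3 (0.0642) or PBSL + IL-1β library 2 (0.0782). The ADP/ATP carrier SLC25A5 was called (log2 fold change 0.15, adjusted p = 0.0473), but kept the call in none of the fits that left out a library other than PBSL + IL-1β library 3, with adjusted p up to 0.154. Copies of SLC25A5 of nearly the same sequence make its value uncertain.

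Among the remaining classes, SLC16A4 (chromosome 1, 110362848 to 110391082), a monocarboxylate transporter family member, was at 5.80, 3.46 and 4.85 in PBSL + IL-1β libraries, against 9.12, 8.62 and 9.34 in IL-1β libraries, and at 10.5, 9.32 and 12.7 in untreated libraries. All PBSL + IL-1β values were below all the others. SLC16A4 fell against IL-1β (log2 fold change -0.83, SE 0.138, adjusted p = 0.00387) and was not called between IL-1β and untreated (log2 fold change -0.23, adjusted p = 0.231). SLC16A4 overlaps LAMTOR5-AS1 on the opposite strand. SLC29A1, the equilibrative nucleoside transporter ENT1, was at 49.02, 59.99 and 53.9 in PBSL + IL-1β libraries, against 42.7, 42.1 and 41.6 in IL-1β libraries, and at 46.7, 45.2 and 42.99 in untreated libraries. It was highest in the PBSL + IL-1β libraries (log2 fold change 0.35, SE 0.0682, adjusted p = 0.00571). SLC39A10 was at 4.29, 5.28 and 4.84 in PBSL + IL-1β libraries, against 3.81, 3.32 and 3.73 in IL-1β libraries, without overlap (log2 fold change 0.33, adjusted p = 0.0139). This call was lost without IL-1β library 2 (adjusted p = 0.0647) or PBSL + IL-1β library 2 (0.0531).

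SLC27A5 rose (log2 fold change 0.34, adjusted p = 0.039), but not without IL-1β library 2 (adjusted p = 0.131), IL-1β library 3 (0.11), PBSL + IL-1β library 1 (0.0891) or PBSL + IL-1β library 3 (0.0737). Among the ion carriers, 1 of 27 rose and 4 fell, or 18.5%, beside 22.5% of all genes tested. SLC26A6 averaged 17.2 ± 0.921 in PBSL + IL-1β libraries and 20.8 ± 0.942 in IL-1β libraries (log2 fold change -0.26, adjusted p = 0.0173), and was not called without IL-1β library 2 (adjusted p = 0.0793), PBSL + IL-1β library 2 (0.0523) or PBSL + IL-1β library 3 (0.05, rounded). SLC12A8, a member of the cation-chloride cotransporter family, was lower (log2 fold change -0.39, adjusted p = 0.0278), but not when IL-1β library 1 (adjusted p = 0.0665), 2 (0.0923) or 3 (0.0683) or PBSL + IL-1β library 2 (0.0848) or 3 (0.0756) was left out. For trace metals 1 of 20 rose and 1 fell, for sugars 1 of 13 rose, for Golgi carriers 1 of 6 rose, for carboxylates and lipids 1 of 14 rose and 2 fell, and for vitamins and nucleosides 2 of 11 rose and 1 fell. In the same order the shares called were 10%, 7.69%, 16.7%, 21.4% and 27.3%, beside 22.5% of all genes tested. SLC11A2 (log2 fold change 0.12, adjusted p = 0.193) and SLC2A6 (log2 fold change -0.25, adjusted p = 0.0522) did not pass the test between PBSL + IL-1β and IL-1β. SLC2A6 passed without PBSL + IL-1β library 1 (adjusted p = 0.00914), after median-ratio rescaling (0.0409) and among genes with a mean of at least 5 (0.0435).

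**Figure D3:**
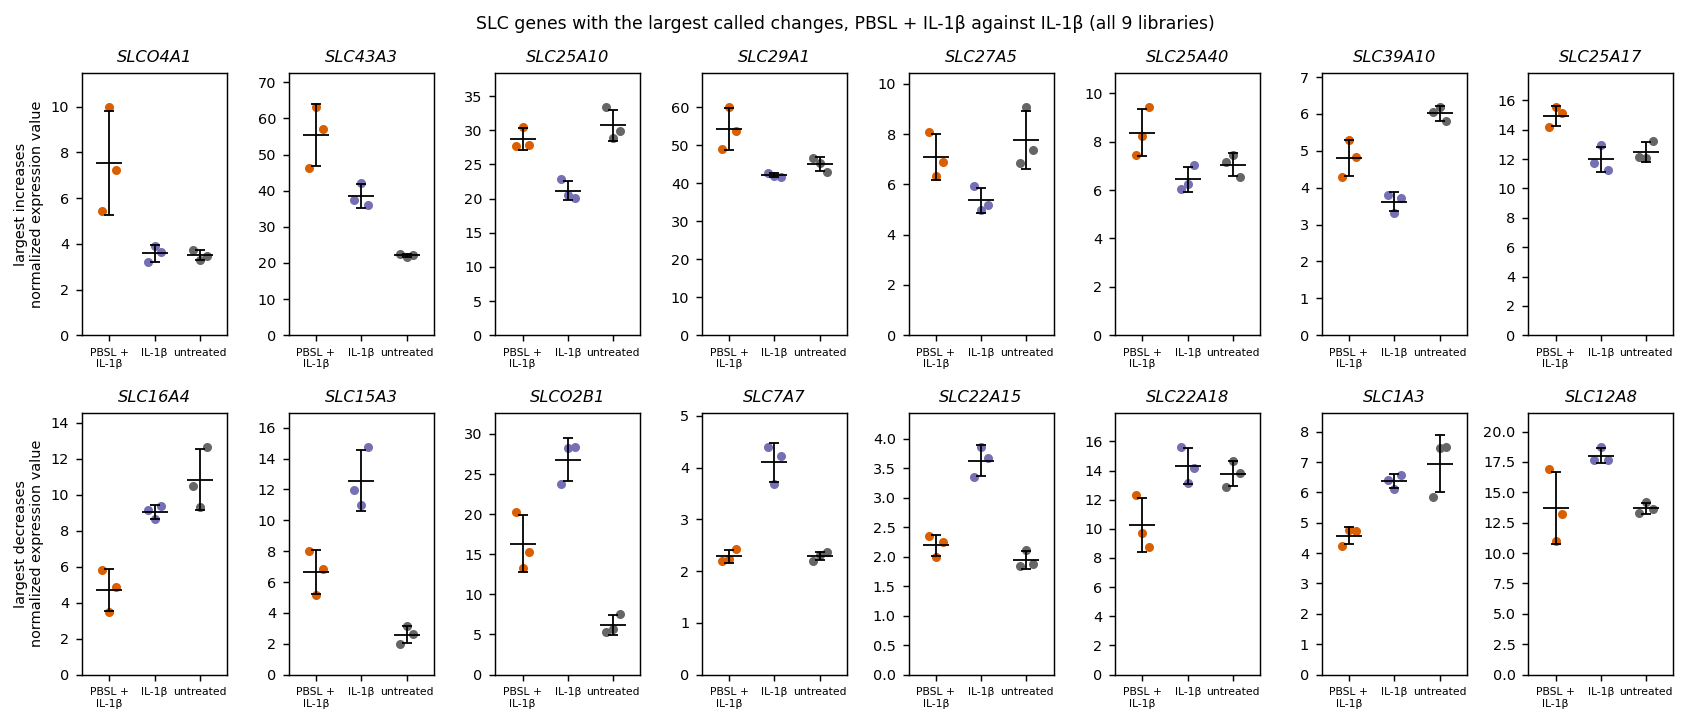
Normalized expression value of the 8 members with the largest called increases (upper row) and decreases (lower row) of PBSL + IL-1β against IL-1β libraries, among members whose groups did not overlap and whose higher mean was 3 or more, 1 point per library, with the mean and SD of 3 libraries; every axis starts at 0. SLCO4A1 stands apart in the PBSL + IL-1β libraries alone (5.45, 9.97 and 7.21), while SLC7A7 is high in the IL-1β libraries alone (4.40, 3.68 and 4.22).

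**Figure D4:**
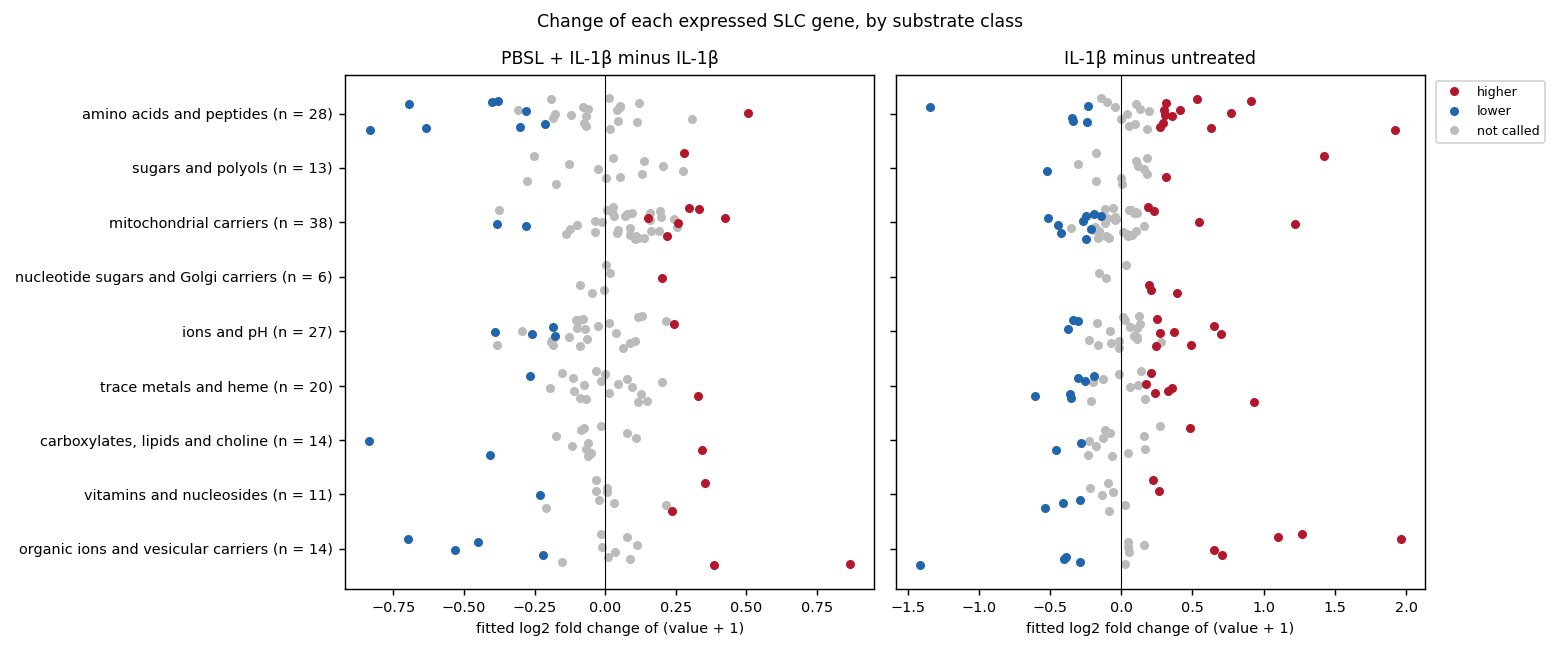
Fitted log2 fold change on the log2(value + 1) scale of each of the 171 members, by substrate class, for PBSL + IL-1β minus IL-1β (left) and IL-1β minus untreated (right). Coloured points are called at an adjusted p under 0.05 (red higher, blue lower); on the right the largest changes are those of SLCO2B1 at 1.96 and SLC14A1 at -1.41, and on the left SLCO4A1 at 0.87 and SLC16A4 at -0.83. The 2 panels have different axis ranges and share the IL-1β libraries.

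The third comparison set PBSL + IL-1β beside untreated cells and shares its libraries with the other comparisons. Of the 171 members, 47 rose and 37 fell, or 49.1%, beside 41.6% of all genes tested (22.3% higher and 19.3% lower). The median log2 fold change was 0.03 over the members and 0.03 over all genes tested. The groups did not overlap for 58 members that were higher (26.0% of all genes tested) and 43 that were lower (22.1%), or 101 in all, beside 48.2% of all genes tested. At least a 2-fold called change was seen in 10 members, beside 2.83% of all genes tested. SLC43A3 (log2 fold change 1.28, adjusted p = 1.2e-06) and SLCO2B1 (log2 fold change 1.26, adjusted p = 3.64e-05) had the largest increases, followed by SLC22A4 (log2 fold change 1.25, adjusted p = 1.01e-07). SLC7A8 (log2 fold change -1.42, adjusted p = 4.97e-07) and SLC16A4 (log2 fold change -1.06, adjusted p = 9.08e-05) had the largest decreases. Of 11 vitamin and nucleoside carriers, 4 rose and 4 fell (72.7%), and of 14 organic ion carriers, 6 rose and 5 fell (78.6%), beside 41.6% of all genes tested. The mitochondrial class gave 9 increases and 4 decreases among 38, or 34.2%, under the 41.6% of all genes tested. SLC11A2 (log2 fold change 1.05, adjusted p = 1.39e-07) and SLC2A6 (log2 fold change 1.17, adjusted p = 8.16e-07) also rose.

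The 10 SLC genes left out by name all rose under IL-1β, beside 16.2% of all genes tested. The largest was SLC39A14, a zinc and iron importer induced in inflammation, with 291 ± 15.4 in PBSL + IL-1β libraries, 307 ± 10.7 in IL-1β libraries and 75.5 ± 1.16 in untreated libraries. With PBSL against IL-1β, 4 of the 10 fell, beside 11.0% of all genes tested. The log2 fold change was -0.56 for SLC7A5 (adjusted p = 0.00405), -0.40 for SLC7A11 (0.012), -0.24 for SLC30A1 (0.0254) and -0.20 for SLC3A2 (0.0213). The calls of SLC30A1 were lost without IL-1β library 2 (adjusted p = 0.106), IL-1β library 3 (0.0833) or PBSL + IL-1β library 2 (0.0829), and those of SLC3A2 without IL-1β library 1 (0.0684), 2 (0.0908) or 3 (0.0536) or PBSL + IL-1β library 2 (0.0588). SLC7A5 and SLC7A11 are the light chains, and SLC3A2 the heavy chain, of amino acid exchangers. Carriers of the SLC35 subfamilies B to G, which have symbols the membership rule did not match and move nucleotide sugars or unknown cargo, had 20 tested genes of 25 in the table. Of these, 2 rose and 3 fell under IL-1β, and 1 rose and 1 fell with PBSL. The shares called were 25% under IL-1β, beside 32.1% of all genes tested, and 10% with PBSL, beside 22.5%.

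Of 16 carriers of solute carrier families with other symbols, 10 were tested. Under IL-1β none of the 10 rose and 4 fell in the limma fit, led by ANKH, a pyrophosphate and citrate exporter that limits cartilage mineralization, with 3.20, 4.07 and 3.69 in PBSL + IL-1β libraries, 2.83, 2.99 and 3.46 in IL-1β libraries and 7.23, 6.53 and 8.05 in untreated libraries. ANKH fell under IL-1β (log2 fold change -1.01, adjusted p = 7.68e-06). At an unadjusted p under 0.05, 4 of the 10 were counted in either direction. At the adjusted threshold 40% of the 10 were called, beside 32.1% of all genes tested. With PBSL against IL-1β, CTNS, the lysosomal cystine exporter, and MTCH2, a mitochondrial outer membrane protein of the carrier family, rose and none fell. That is 20% of the 10 called, beside 22.5% of all genes tested. The call of MTCH2 was lost without IL-1β library 1 (adjusted p = 0.0522), IL-1β library 2 (0.0767), PBSL + IL-1β library 2 (0.0547) or PBSL + IL-1β library 3 (0.0612). Of 15 tested partner subunits and regulators, 1 rose and 6 fell under IL-1β, among them EMB, a chaperone of monocarboxylate carriers, at -0.49 (adjusted p = 0.000243), and ATP1B1, a sodium pump subunit, at -0.43 (0.000218). With PBSL, 1 rose and 2 fell. The shares of these partners called were 46.7% under IL-1β and 20% with PBSL, beside 32.1% and 22.5% of all genes tested.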

How the data were processed

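RNA was measured in 9 mRNA libraries of SW1353 cells made with a directional kit. Trim Galore, STAR, HTSeq and the hg38 build are named per the submitters' processing notes, with no versions. The authors deposited 1 table of normalized signal values. How they were scaled, and whether they are FPKM or TPM, is not given in the sources used here, and scaling for length and depth was assumed. They are not counts, so no depth, counting interval or count test could be had.

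The test took the 11924 genes with at least 3 libraries at a value of 1 or more. limma 3.58.1 in R 4.3.3 was fitted to log2(value + 1) with a variance trend, 3 group means, 9 libraries and 6 residual degrees of freedom, without a replicate block. Calls needed a 2-sided Benjamini-Hochberg adjusted p under 0.05 over all genes tested. The procedure was tested on simulated data. Alternatives were pseudocounts of 0.1 and 0.5, no filter, a mean of at least 5, median-ratio rescaling, no variance trend, the fit of only the 2 groups compared, a replicate block and each library left out.

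Members, substrate classes and lists were chosen with earlier results of these data known. A rule named the genes described. Per comparison it took the 8 strongest called increases and the 8 strongest called decreases whose groups did not overlap and whose higher mean was 3 or more. It also took the smallest p and the highest level of each class, and 20 carriers in every case. SLC15A4, SLC22A5, SLC22A23, SLC25A13, SLC25A20, SLC25A28, SLC25A38, SLC25A5, SLC31A1, SLC38A1, SLC38A3 and SLC41A2, and the named genes of the lists, were added after their values were seen. Some genes the rule named are not reported here. Tables used Python 3.11.15, numpy 2.4.6 and pandas 2.3.3.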

Additional observations from a re-analysis of the deposited data

How the results depend on the processing

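In IL-1β against untreated libraries, restricting the test to genes with a mean of at least 5 left 21 lower members in place of 33, by construction since low members are then not counted, and 23 in place of 37 for PBSL + IL-1β against untreated. Leaving out each library in turn gave 30 to 48 higher and 22 to 37 lower members for IL-1β against untreated, 8 to 27 higher and 12 to 33 lower for PBSL + IL-1β against IL-1β, and 38 to 48 higher and 31 to 40 lower for PBSL + IL-1β against untreated. An alternative chosen after seeing the data, median-ratio rescaling without PBSL + IL-1β library 1, gave 23 higher and 36 lower members for PBSL + IL-1β against IL-1β. The cause was not tested. With the replicate block the counts were 42 higher and 30 lower, 13 and 18, and 46 and 37 in the same order of comparisons. The labels do not pair the libraries, and deviations of same-numbered libraries correlated at -0.225 to 0.0681. Reversed directions came from leaving out a library, in differences that were not called. Over the libraries left out, the log2 fold change between IL-1β and untreated ran from -0.0499 to 0.0171 for SLC12A2, from -0.0244 to 0.0884 for SLCO4A1 and from -0.0234 to 0.108 for SLC22A5. Between PBSL + IL-1β and IL-1β it ran from -0.0153 to 0.0889 for SLC50A1, from -0.0775 to 0.0312 for SLC52A2 and from -0.00874 to 0.104 for SLC23A2. Between PBSL + IL-1β and untreated it ran from -0.109 to 0.0344 for SLC1A5, from -0.000829 to 0.0835 for SLC12A2 and from -0.035 to 0.0161 for SLC7A7. Among the named genes, settings that kept all libraries (no filter on low values, no variance trend, rescaling, the 2 groups alone or the replicate block) ended the calls of SLC27A5, SLC12A8, SLC38A2, SLC14A1, SLC20A1, SLC25A38, SLC25A5 and SLC22A23 between PBSL + IL-1β and IL-1β, with adjusted p of 0.0508 to 0.0957 in limma's test. Between PBSL + IL-1β and untreated they ended those of SLC4A2, SLC52A2 and SLC7A1, with adjusted p of 0.0521 to 0.0755. Both pseudocounts left the call of each named gene as it was. With 3 libraries a group and no counts, sequencing depth behind low members such as SLC38A3 and SLC7A2 is unknown.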
